A study of Homo sapiens with 12 samples.

Results

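The CEACAM genes CEACAM5, CEACAM6 and CEACAM1 (gene IDs 1048, 4680 and 634) were examined for active chromatin and FOXA2 binding in SW620, labelled a Dukes' type C colorectal adenocarcinoma line, and in SW480, labelled Dukes' type B. Both lines were untreated and grown in DMEM with serum. They are established lines from the same patient, SW480 from the primary tumour and SW620 from a later lymph node metastasis, so the pair stands for a single case. Immunoprecipitated chromatin was sequenced (ChIP-seq) with antibodies to H3K4me2, H3K4me3, H3K27ac, H3K36me3 and FOXA2, with 1 library per antibody and line, and the differences given here therefore have no replicate check. All enriched regions within 20 kb of each gene were taken, whatever they showed. There were 23 such regions among 262931 in the 10 lists, 15 from SW620 and 8 from SW480.

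CEACAM proteins are immunoglobulin-like adhesion molecules of epithelia. CEACAM5, the carcinoembryonic antigen used as a blood marker of colorectal cancer, and CEACAM6 are held in the membrane by a lipid (GPI) anchor, whereas CEACAM1 spans the membrane and in its long form carries inhibitory signalling motifs in a cytoplasmic tail. H3K4me3 lies at active promoters and H3K4me2 at promoters and enhancers. H3K27ac marks those in use, and H3K36me3 lies over transcribed gene bodies. FOXA2 is a forkhead pioneer factor of gut endoderm and liver that binds enhancers.

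All 3 genes lie on chromosome 19, and coordinates of regions are hg19, counted from 1. CEACAM5 runs from 42212530 to 42233718 and CEACAM6 from 42259398 to 42276113, both on the forward strand and 25.7 kb apart. CEACAM1 runs from 43011458 to 43032661 on the reverse strand, 735.3 kb beyond CEACAM6. In the RefSeq gene order CEACAM5 and CEACAM6 are neighbours, with CEACAM7 before them and CEACAM3 after them. CEACAM1 stands between CXCL17 and CEACAM8, and the long antisense gene LIPE-AS1 and LOC105372407 overlap it. LOC112268252 overlaps CEACAM6. The windows of CEACAM5 and CEACAM6 have 14.3 kb in common, so 1 region counts for both genes. The start site was taken as the 5′ end of each interval, and no source used here places exons and introns on this build.

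The promoters of the 3 genes are shown because the results divide by promoter: within 1 kb of the start site, marks were called at CEACAM1 and not at CEACAM5 or CEACAM6. The sequences are from RefSeq on GRCh38.p14, with 250 bases before and 50 after the start site, on the strand of the gene. Capitals mark the E-box CACGTG and the GC box GGGCGG, which reads CCGCCC on the other strand. CEACAM5 is chr19:41708376-41708675 (forward), CEACAM6 is chr19:41755280-41755579 (forward) and CEACAM1 is chr19:42528432-42528731 (reverse).
CEACAM5: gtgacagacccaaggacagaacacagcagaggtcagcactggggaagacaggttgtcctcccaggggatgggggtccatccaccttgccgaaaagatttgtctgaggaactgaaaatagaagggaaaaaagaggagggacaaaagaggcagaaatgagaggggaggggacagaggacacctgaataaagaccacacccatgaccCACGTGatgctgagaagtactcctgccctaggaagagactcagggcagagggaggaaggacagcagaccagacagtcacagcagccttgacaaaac
CEACAM6: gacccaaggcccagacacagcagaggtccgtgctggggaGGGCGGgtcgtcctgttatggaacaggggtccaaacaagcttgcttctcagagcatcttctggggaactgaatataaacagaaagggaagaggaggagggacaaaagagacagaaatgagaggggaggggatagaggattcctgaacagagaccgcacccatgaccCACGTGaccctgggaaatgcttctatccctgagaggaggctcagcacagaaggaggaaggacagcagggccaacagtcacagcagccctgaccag
CEACAM1: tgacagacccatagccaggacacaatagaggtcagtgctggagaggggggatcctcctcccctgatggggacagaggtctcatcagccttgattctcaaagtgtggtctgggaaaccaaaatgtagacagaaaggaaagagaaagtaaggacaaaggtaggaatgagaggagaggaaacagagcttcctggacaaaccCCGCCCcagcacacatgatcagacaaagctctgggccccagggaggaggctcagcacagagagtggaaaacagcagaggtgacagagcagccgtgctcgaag

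The promoters of CEACAM5 and CEACAM6 were the more alike pair, with 74.7% identity over 308 aligned positions. CEACAM1 had 65.6% identity with CEACAM5 and 68.2% with CEACAM6. The longest run of identical bases between any 2 of them was 21, between CEACAM5 and CEACAM6. The neighbouring CEACAM7 promoter was closer still to both, with 81.4% identity to CEACAM5 and 80.5% to CEACAM6. No source used here says how reads that match several members of the family were treated.

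CEACAM5 and CEACAM6 each carried the E-box at nearly the same place, starting 46 and 45 bases before the start site, and CEACAM1 had none. The E-box was present in 7.26% of 35116 RefSeq promoters of this length. The GC box, present in 45.0% of them, occurred in CEACAM6 at 211 bases and in CEACAM1 at 52 bases before the start site. None of the 3 held the forkhead core TGTTTAC, its variant TGTTTGC, the form TATTTAC or the form TATTTGC on either strand, which 12.1% of all promoters did. The search covered these promoter sequences only, and the sequences of the FOXA2 peaks were not searched. The TATA box TATAAA, present in 11.5% of promoters, occurred in CEACAM6 alone, 139 bases before the start site, and the CDX core TTTATNG, present in 9.73%, in none of the 3. All 3 were poor in CpG, with 2 in CEACAM5, 5 in CEACAM6 and 3 in CEACAM1 against a median of 14. Both strands were searched, and no searched motif overlapped another in these sequences.

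The first comparison asked whether the promoters were marked. At CEACAM5 and CEACAM6 no region of any of the 5 antibodies lay within 1 kb of the start site in SW620 or in SW480. Within 2 kb, SW620 had 791 bp of H3K4me2 upstream of CEACAM5, and SW480 had 0 bp. At CEACAM1 all of H3K4me2, H3K4me3 and H3K27ac were called over the start site in both lines. In SW620 these marks covered 2001, 1548 and 1076 of the 2001 bp around the CEACAM1 start site, and in SW480 they covered 1646, 1001 and 2001 bp. At this width the methylation marks covered more in SW620 and the acetylation less. The differences, SW620 minus SW480, depended on the width taken: within 500 bp of the start site they were 0 bp for H3K4me2, 24 bp for H3K4me3 and -425 bp for H3K27ac. Within 2 kb they were 1122, 586 and -32 bp in the same order of marks.

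The CEACAM1 promoter regions differed between the lines in width and in the side they lay on. H3K4me2 was 3357 bp wide in SW620, from 43030573 to 43033929, and 2147 bp in SW480, from 43031160 to 43033306. The SW620 region contained the whole of the SW480 region. H3K4me3 was 1587 bp wide in SW620, from 43032114 to 43033700, against 1001 bp in SW480, from 43032137 to 43033137. A width of 1001 bp is the narrowest in the histone lists, and 12.1% of the SW480 H3K4me3 regions had it. When both H3K4me3 lists were given equal length by width, with ties kept in list order, this SW480 region fell out on its place in the list, since other regions of the same width stayed. H3K4me3 reached 1039 bp upstream of the start site in SW620 and 476 bp in SW480, while inside the gene it reached 547 bp in SW620 and 524 bp in SW480.

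The H3K27ac region called at the CEACAM1 promoter was about as wide in both lines, but its called edges differed. It was 2057 bp wide in SW620 (43032586 to 43034642) and 2089 bp in SW480 (43031607 to 43033695). It extended 1981 bp upstream of the start site and 75 bp into the gene in SW620, against 1034 bp upstream and 1054 bp into the gene in SW480. The regions of the lines had 1110 bp in common, which was 54.0% of the SW620 region and 53.1% of the SW480 region. The H3K27ac libraries held 47867295 tags in SW620 and 34224728 in SW480, and 27.5% of the tags in SW620 and 58.5% in SW480 lay inside regions. The part of this difference in the placement of a region was not tested.

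**Figure D1:**
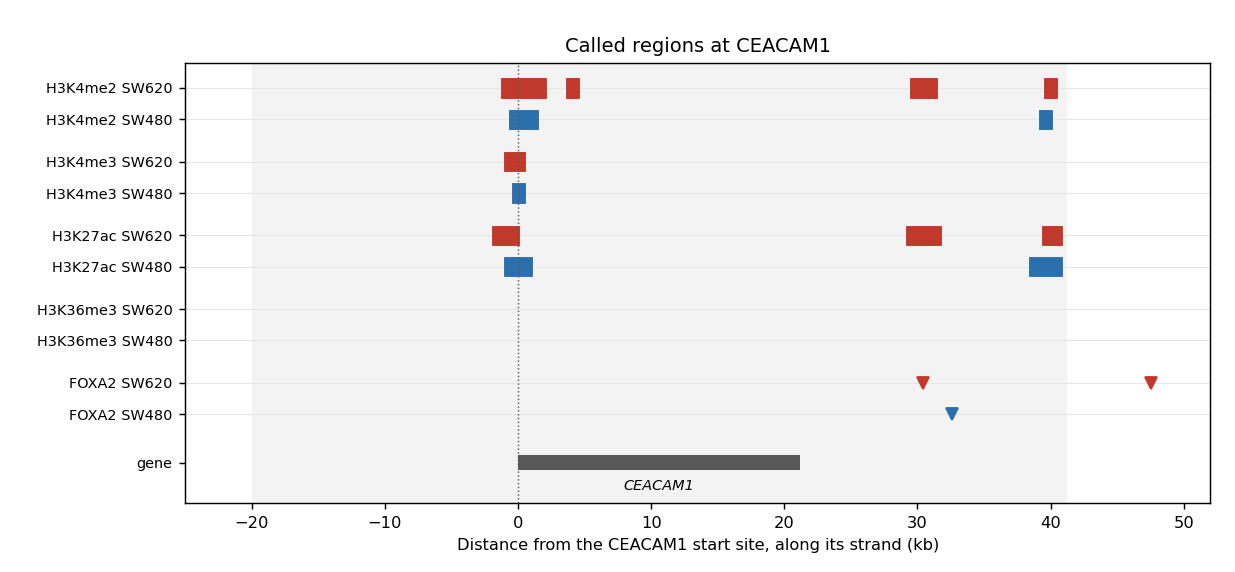
Regions called around CEACAM1 by antibody and line, plotted by distance in kb from the start site along the strand of the gene. Bars are histone regions to scale, triangles are centres of FOXA2 peaks, the grey bar is the gene and the shaded area the 20 kb window. Both lines had H3K4me2, H3K4me3 and H3K27ac at the start site, and SW620 alone had H3K4me2 and H3K27ac around 30 kb downstream of it.

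Beyond the promoter, the CEACAM1 window held an acetylated site in both lines and another in SW620 alone. The site in both lines lay between 17173 and 19670 bp past the 3′ end of the gene. Its H3K27ac region was 1513 bp wide in SW620 (42991788 to 42993300) and 2473 bp in SW480 (42991813 to 42994285), with 1488 bp in common. H3K4me2 there was 1001 bp wide in each line, from 42992167 to 42993167 in SW620 and from 42992556 to 42993556 in SW480, with an overlap of 612 bp. Neither line had H3K4me3 or a FOXA2 peak at this site.

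The site marked in SW620 alone lay 7956 to 10562 bp past the 3′ end of CEACAM1. There H3K27ac covered 2607 bp (43000896 to 43003502) and H3K4me2 covered 2057 bp (43001184 to 43003240). A FOXA2 peak of 319 bp, from 43002051 to 43002369, was centred 2 bp from the centre of the H3K4me2 region and 11 bp from that of the H3K27ac region. In SW480 no histone region was called within this stretch, and the nearest H3K27ac region was 6611 bp away. SW480 did have a FOXA2 peak close by, from 42999976 to 43000102, with 1948 bp between it and the SW620 peak. That SW480 peak lay on no histone region of either line, the closest being SW620 H3K27ac at 794 bp.

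SW620 also had a 1001 bp H3K4me2 region inside CEACAM1, from 43028067 to 43029067, 3594 to 4594 bp after the start site. It carried no other mark, had the least width in its list and stood after 98.7% of it. It fell out when both H3K4me2 lists were given equal length by width, with ties kept in list order. Its nearest SW480 H3K4me2 region was that of the promoter, 2093 bp away.

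At CEACAM5 every called region came from SW620. The window held 2 H3K4me2 regions, 1 H3K27ac region and 1 FOXA2 peak in SW620, and none of any antibody in SW480. A 1253 bp H3K4me2 region, from 42210068 to 42211320, ended 1210 bp upstream of the start site, on the side of CEACAM7. It carried neither H3K27ac nor FOXA2.

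The other SW620 site lay between CEACAM5 and CEACAM6. Its H3K4me2 region was 2703 bp wide, from 42237149 to 42239851, wider than 67.4% of its list. It began 3.43 kb past the 3′ end of CEACAM5 and ended 19.5 kb upstream of the CEACAM6 start site. Inside it were an H3K27ac region of 1001 bp (42237952 to 42238952) and a FOXA2 peak (42238595 to 42238913) that lay whole within the H3K27ac region. With FOXA2 lists of equal length, taken in list order, this peak fell out. This H3K27ac region stood after 92.2% of its list and had the least width in it, as did 13.7% of all SW620 H3K27ac regions. With H3K27ac lists of equal length it could not fall out, since the SW620 list was the shorter (22236 regions, 23493 in SW480). The nearest H3K27ac region of SW480 was 123540 bp away.

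The intergenic site shows where the 20 kb limit falls. Its H3K4me2 region reached to 19.5 kb from CEACAM6 and was counted for that gene too, while its H3K27ac region and FOXA2 peak, at 20.4 and 20.5 kb, were counted for CEACAM5 only. The next regions outside the windows were SW620 FOXA2 peaks at 26.2 kb from CEACAM1 and 27.2 kb from CEACAM6, and an SW620 H3K4me2 region at 38.6 kb from CEACAM1. Up to 50 kb from the genes, SW480 had no further region.

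**Figure D2:**
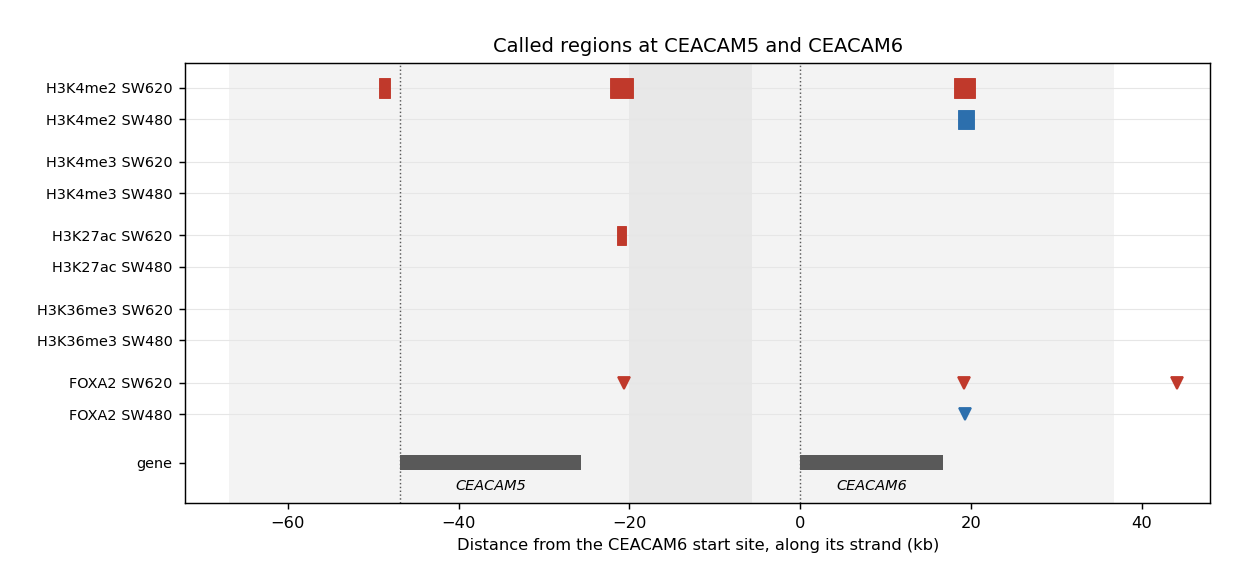
Regions called around CEACAM5 and CEACAM6 by antibody and line, plotted by distance in kb from the CEACAM6 start site. Bars are histone regions to scale, triangles are centres of FOXA2 peaks, grey bars are genes and the shading shows the 20 kb windows, darker where they overlap. Neither start site (dotted) was marked, and SW480 had regions only at the site past the 3′ end of CEACAM6.

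At CEACAM6 the lines had a site in common. H3K4me2 was called past the 3′ end of the gene in both, over 2429 bp in SW620 (42277423 to 42279851) and 1787 bp in SW480 (42277891 to 42279677), and the SW620 region contained that of SW480. It began 1.31 kb after the gene end in SW620 and 1.78 kb after it in SW480. FOXA2 peaks lay inside, from 42278461 to 42278779 in SW620 and from 42278597 to 42278723 in SW480, with centres 40 bp apart. H3K27ac and H3K4me3 were called there in neither line.

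Few FOXA2 positions of the series were common to the lines in this way. Of the 12372 SW620 peaks, 236 overlapped 1 of the 5207 SW480 peaks, and of these 236, 63 (26.7%) lay on H3K4me2 of both lines. In SW480 0.59% of FOXA2 tags lay in peaks, against 2.25% in SW620, and the part of this in the small overlap was not tested. Among those 63 were 14 with H3K27ac in neither line, 5.93% of the 236, and the CEACAM6 peak was 1 of these 14. The class repeats the marks seen at the CEACAM6 site, so the place of its peak among the 14 was set by that choice. The SW620 peak stood early in its list, with 6.14% of the peaks before it, and the SW480 peak had 58.4% before it. No source used here says what the order of the lists means.

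FOXA2 was also described over the windows together. SW620 had 3 peaks, 1 per window, and SW480 had 2, at CEACAM6 and CEACAM1. Of stretches of the CEACAM5 window length over the genome, 80.9% had no peak in SW620 and 90.2% had none in SW480, and on chromosome 19 the shares were 80.1% in SW620 and 85.2% in SW480. All 3 SW620 peaks lay on H3K4me2 of SW620, as did 51.7% of the whole SW620 list, and 2 lay on H3K27ac, as did 33.9% of the list. Of the 2 SW480 peaks 1 lay on H3K4me2 of SW480, against 5.61% of its list, and 0 on H3K27ac, against 4.47%. None of the 5 peaks lay inside the 3 genes or on H3K4me3, which held 13.1% of the SW620 list and 2.19% of the SW480 list. The FOXA2 libraries were of like depth, 18036456 tags in SW620 and 19473583 in SW480, but 2.25% of the tags lay in peaks in SW620 and 0.590% in SW480. What part this has in the SW480 counts was not tested.

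H3K36me3 was the absent mark. No H3K36me3 region lay in any of the 3 windows in either line, although the lists held 45466 such regions in SW620 and 52664 in SW480. The nearest to CEACAM1 was 130.4 kb from the gene in SW620 and 130.1 kb in SW480, and the stretch without H3K36me3 around its start site was 1100.7 kb long in SW620 and 1099.1 kb in SW480. CEACAM5 and CEACAM6 lay together in a stretch without H3K36me3 of 422.3 kb in SW620 and 277.1 kb in SW480. On chromosome 19, 44.7% of stretches of the CEACAM5 window length had H3K36me3 in neither line, and over the genome 74.8% did. A gene can be transcribed at a level that this antibody and the calling threshold of 4-fold over input do not show, so the missing call is no measure of expression.

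The distances to the nearest regions set the genes apart as well. CEACAM5 and CEACAM6 lay in a stretch without H3K4me3 of 355.0 kb in SW620 and 278.6 kb in SW480. A window without H3K4me3 in either line was common. This held for 71.7% of stretches of the CEACAM5 window length over the genome and 36.4% on chromosome 19. With the CEACAM6 window length the shares were 73.1% over the genome and 38.9% on chromosome 19. For H3K27ac the unmarked stretch around CEACAM5 and CEACAM6 in SW480 was 277.0 kb. In SW620 the intergenic site divided it, with 229.9 kb around the CEACAM5 start site and 123.4 kb around that of CEACAM6. From the CEACAM5 start site the nearest H3K4me2 region was at 1210 bp in SW620 and 65361 bp in SW480. From the CEACAM6 start site it was at 18025 bp in SW620 and 18493 bp in SW480, close to equal.

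**Figure D3:**
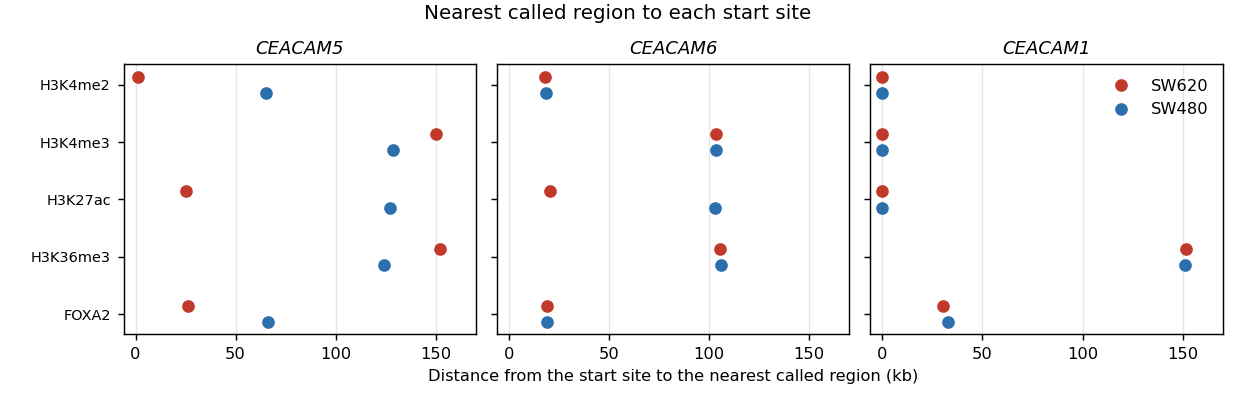
Distance in kb from each start site to the nearest called region of each antibody, SW620 in red above SW480 in blue. At CEACAM5 the nearest H3K4me2, H3K27ac and FOXA2 regions were closer in SW620, while H3K4me3 (150.2 kb in SW620, 128.5 kb in SW480) and H3K36me3 (152.1 kb in SW620, 124.4 kb in SW480) were closer in SW480. At CEACAM6 the H3K27ac region was closer in SW620. At CEACAM1 the first 3 marks were at 0 in both lines.

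The covered length summed these differences. H3K4me2 covered more in SW620 in all 3 windows of 20 kb: 3956 bp in SW620 and 0 bp in SW480 at CEACAM5, 2883 bp in SW620 and 1787 bp in SW480 at CEACAM6, and 7416 bp in SW620 and 3148 bp in SW480 at CEACAM1. Of the 2883 bp at CEACAM6, 454 bp were the edge of the intergenic region counted for CEACAM5 too. The CEACAM6 difference, SW620 minus SW480, was 1096 bp with 20 kb, 642 bp with 10 kb, 4598 bp with 50 kb and 0 bp over the gene alone. Over the gene alone it was also 0 bp at CEACAM5, and 1588 bp at CEACAM1. As a background, the genome was divided into consecutive stretches of the window length. H3K4me2 covered more in SW620 in 23.6%, 22.6% and 23.5% of such stretches, with the window lengths of CEACAM5, CEACAM6 and CEACAM1. On chromosome 19 it did so in 40.2%, 39.5% and 39.0%. It covered more in SW480 in 19.8%, 19.1% and 19.8% over the genome, and in 34.6%, 33.8% and 35.2% on chromosome 19. At CEACAM5 it was present in SW620 alone, which held for 6.68% of the stretches over the genome and 2.80% on chromosome 19. Of stretches of the CEACAM5 window length, 56.0% over the genome and 24.9% on chromosome 19 had H3K4me2 in neither line.

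H3K27ac covered more in SW620 in 2 of the windows. It covered 1001 bp in SW620 and 0 bp in SW480 at CEACAM5, and 6177 bp in SW620 and 4562 bp in SW480 at CEACAM1. With these 2 window lengths it covered more in SW620 in 11.9% and 12.0% of stretches over the genome. On chromosome 19 it did so in 16.3% and 16.4%. It covered more in SW480 in 21.3% and 21.2% of stretches over the genome, and in 48.6% and 48.4% on chromosome 19. With the CEACAM5 window length, 66.6% of stretches over the genome and 34.6% on chromosome 19 had H3K27ac in neither line. The mark was present in SW620 alone, as at CEACAM5, in 4.04% of stretches over the genome and 1.97% on chromosome 19. In SW480 alone it was present in 6.25% over the genome and 8.2% on chromosome 19. At CEACAM6 it covered 0 bp in both lines. Within the CEACAM1 gene itself the order was the other way, with 76 bp in SW620 and 1055 bp in SW480. These lengths belong to the promoter regions described above, so they restate the difference in their called edges.

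**Figure D4:**
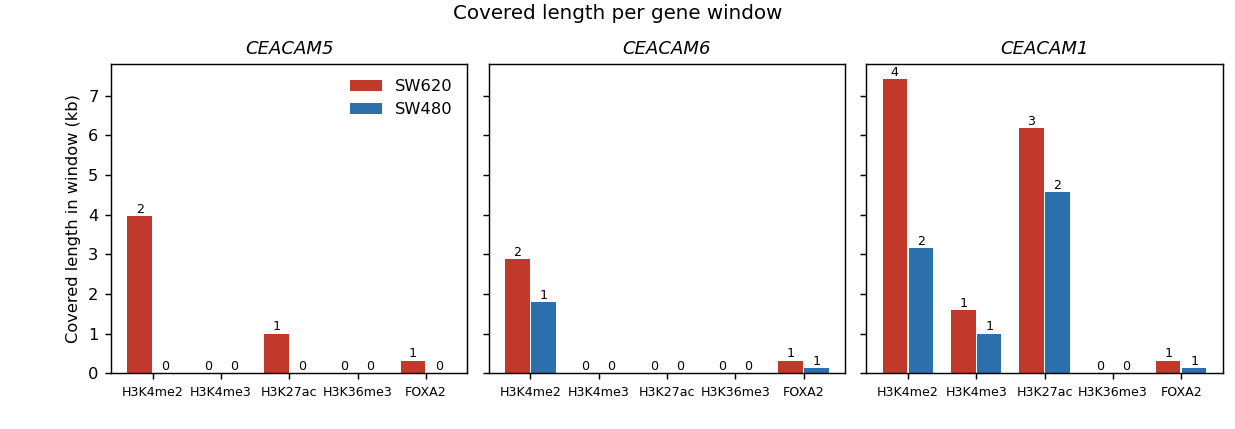
Length in kb covered by regions of each antibody in the 20 kb window of each gene, with SW620 in red left of SW480 in blue. The number of regions stands over each bar. SW620 covered more than SW480 for every antibody and gene with a call, and FOXA2 bars follow the peak widths of 319 bp in SW620 and 127 bp in SW480.

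Regions were then sorted into those called in both lines and those called in one of them, with an overlap of 1 bp counted as both. Of the 7 SW620 H3K4me2 regions in the windows 4 were called in SW620 alone, against 30.2% of the whole list, and of the 4 SW620 H3K27ac regions 2 were, against 26.8%. Of the 3 SW620 FOXA2 peaks 2 were, against 98.1%. The SW620 H3K4me3 region was called in both lines, as were all but 6.85% of its list. In SW480 none of the 3 H3K4me2, 2 H3K27ac and 1 H3K4me3 regions was called in that line alone, where the list shares were 23.2%, 32.0% and 17.1%. Of the 2 SW480 FOXA2 peaks 1 was, against 95.5%. Together 8 of 15 SW620 regions and 1 of 8 SW480 regions had no counterpart. These totals mix antibodies whose list shares ran from 6.85% to 98.1% in SW620 and from 17.1% to 95.5% in SW480. They were set against no share over all lists, so only the counts per antibody can be read beside a background.

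Some of the unmatched SW620 regions were calls of different antibodies at the same site, each counted as a region of its own. The intergenic site of CEACAM5 and CEACAM6 and the site past the 3′ end of CEACAM1 each held H3K4me2, H3K27ac and a FOXA2 peak that SW480 lacked, and accounted for 6 of the 8. This combination was found at 2 of the 7 SW620 H3K4me2 regions in the windows and at 3.14% of the whole SW620 list, and it was picked after these sites had been seen. In SW480 it was found at 0 of 3 regions and at 0.0535% of the list. The other 2 were the H3K4me2 regions without acetylation upstream of CEACAM5 and inside CEACAM1. A FOXA2 peak lay in 3 of the 7 SW620 H3K4me2 regions, against 17.5% of the list, and H3K27ac overlapped 4 of them, against 58.2%. In SW480 a FOXA2 peak lay in 1 of the 3 H3K4me2 regions, against 0.900% of the list, and H3K27ac overlapped 2, against 69.6%.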

How the data were processed

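The members and lists were chosen with earlier results of these data known. ChIP-seq libraries of 10 antibody samples were used. The input libraries entered only through the authors' peak calling. Per the file headers, the authors called regions in each library against the input of the same line with HOMER findPeaks. Histone marks were called with a region size of 1000 bp and at least 4-fold over input and local background. FOXA2 was called with at least 2-fold, and the false discovery rate was 0.001 throughout. Per the submitters' processing notes, positions are on hg19. No source used here names the aligner. The deposited start and end positions were used, and the deposited score column was 1 in every row. Total tags per library lay between 12791745 and 47867295, per the file headers.

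Gene intervals of hg19 were set with a window of 20 kb on either side. Overlaps needed 1 bp and were found with Python 3.11.15 (numpy 2.4.6, pandas 2.3.3), after a test on simulated regions. With 1 library per group no test between lines was made. All 3 genes are named and every region in their windows is accounted for. Promoters were the start site with 1 kb on either side. Strands, gene order and promoter sequences came from RefSeq tables on GRCh38, whose coordinates were used for no overlap, and all 3 genes were matched by symbol. Alternatives covered the window, the promoter, the overlap rule and equal list lengths. The stretches of the window length on chromosome 19 alone were added after seeing the data. Tissue markers of the lines were not analysed here.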

Additional observations from a re-analysis of the deposited data

How the results depend on the processing

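No paired analysis was possible because each group has 1 library. Of 88 values recomputed under 12 settings, 58 stayed within 1.5 times the reported value, 29 moved further and 1 changed sign. Values that were 0 and stayed 0 are counted among the 58. Equal list lengths shortened the longer list only, so regions of the shorter list could not fall out. The 58 is therefore no measure of how firm the results are. With the gene intervals alone, SW620 kept 4 regions, 1 of them called in SW620 alone, and SW480 kept 3, 0 of them called in SW480 alone. FOXA2 peaks were then 0 in either line, so also 0 on H3K4me2. The H3K4me2 difference, SW620 minus SW480, was then 0 bp at CEACAM5 and CEACAM6 and 1588 bp at CEACAM1. The H3K27ac difference was 0 bp at CEACAM5 and turned to -979 bp at CEACAM1. Within 10 kb, SW480 had 5 regions, 0 of them called in SW480 alone, and 1 FOXA2 peak, and the H3K4me2 difference at CEACAM6 was 642 bp. Within 50 kb, SW620 had 5 FOXA2 peaks, and the differences at CEACAM6 were 4598 bp for H3K4me2 and 1001 bp for H3K27ac. These follow from which regions the window takes in. At the CEACAM1 promoter, the differences within 500 bp were 0 bp in H3K4me2, 24 bp in H3K4me3 and -425 bp in H3K27ac, and within 2 kb they were 1122 bp in H3K4me2 and -32 bp in H3K27ac. Within 2 kb, SW620 marks covered 791 bp of the CEACAM5 and CEACAM6 promoters together, all of it by the H3K4me2 region upstream of CEACAM5. With equal list lengths, where ties of width were kept in list order, the 1001 bp SW480 H3K4me3 region at CEACAM1 fell out, and the H3K4me3 difference was 1548 bp. Also lost were the SW620 H3K4me2 region inside CEACAM1 and the SW620 FOXA2 peak of the intergenic site. Without the first 2 kb of the genes, H3K4me2 covered 1090 bp of gene bodies in SW620 and 0 bp in SW480. The share of stretches with more H3K4me2 in SW620 was 40.2% on chromosome 19 and 23.6% over the genome. Tag counts per region were not analysed here, so a region called in 1 line may lie just under the threshold in the other.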
